A study of Mus musculus with 2 samples.

Results

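The 10 genes described here encode ligands and receptors of the vascular endothelial growth factor (VEGF) and angiopoietin pathways. They are the VEGF ligands Vegfa, Vegfb and Vegfc, the VEGF receptors Kdr, Flt1 and Flt4, the co-receptor Nrp1, the angiopoietin ligand Angpt1 and the Tie receptors Tek and Tie1. They were taken by symbol from the transcript tables and joined by gene identifier to the gene tables, and all 10 were found among 55450 genes with a symbol. Total RNA of heart tissue was sequenced from 2 adult male B6CASTF1/J mice, which are F1 hybrids of a B6 and a Cast parent, aged 8 to 10 months. Each library was made with a strand-keeping kit out of 300 ng of RNA after reduction of ribosomal RNA, with ERCC spike-in RNA added. Replicate 1 was labelled animal 2 and replicate 2 animal 4, although the labels give both the same donor entry. No treatment was named, and both libraries form a single group, so no conditions were compared and no p-value is given. The spread between the libraries is that between these samples, and may be partly technical. Unnamed pairs of values are those of replicates 1 and 2.

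VEGF ligands are secreted proteins that act on receptor tyrosine kinases of endothelial cells, where Kdr carries most of the mitogenic signal and Flt1 binds ligand tightly but signals weakly. Vegfa binds both of these receptors, Vegfb binds Flt1, and Vegfc acts mainly through Flt4 on lymphatic endothelium. Angpt1, made by perivascular cells and by heart muscle, activates Tek and steadies quiescent vessels, and Tie1 is a partner of Tek without a well-defined ligand of its own.

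The libraries held 42.05 and 39.98 M expected counts on mouse genes in replicates 1 and 2. An expected count is a number of reads assigned to a gene after ambiguous reads are shared out, and TPM is that count per transcript length, scaled to a fixed sum in each library. Nuclear protein-coding genes held 35.8% and 36.6% of all TPM in replicates 1 and 2; the remainder lay on other genes. Gene-by-gene counts differed between the libraries by more than sampling noise (chi-square per degree of freedom 15.4). The heart label was checked with marker genes: all 6 heart muscle markers were detected, with a median of 3921 and 4311 TPM, and all 8 endothelial markers, with a median of 30.4 and 28.4 TPM. In bulk tissue fewer cells of a type and less RNA per cell cannot be told apart.

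The adult hearts held RNA of all 10 genes at 1 TPM or more in both libraries, at levels that ran between 1.74 TPM for Vegfc and 174 TPM for Vegfb. The median of the 10 genes was 22.8 TPM in replicate 1 and 22.2 TPM in replicate 2 (22.5 ± 0.435, SD, n = 2), beside 8.04 TPM over the 11603 genes that reached 1 TPM in both libraries. From the highest to the lowest mean the order was Vegfb, Vegfa, Nrp1, Kdr, Flt1, Tie1, Tek, Angpt1, Flt4 and Vegfc. For all 9 neighbouring pairs in that order, the lower library of the higher gene lay above the higher library of the lower gene. A second quantification of the same libraries, deposited as separate transcript tables, gave the same order in each library and no overlap between neighbours. The closest neighbours relative to their spread were Vegfa and Nrp1, whose means differed by 1.36 times the sum of their SDs, then Kdr and Flt1 at 1.46 times and Nrp1 and Kdr at 1.53 times.

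**Figure D1:**
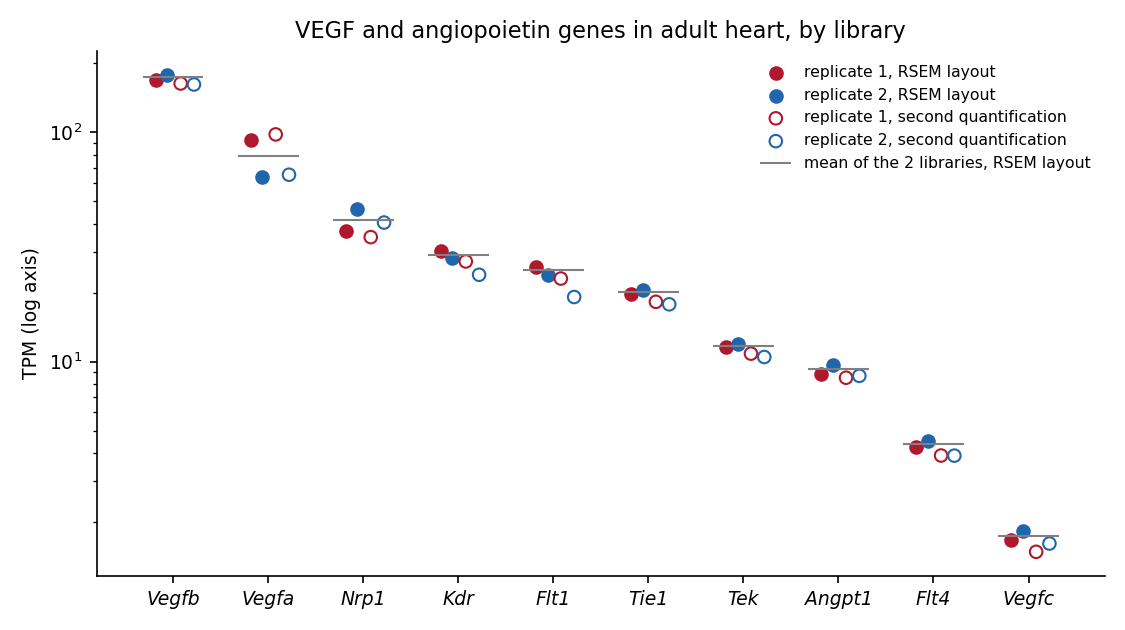
TPM of the 10 genes on a log axis, by library, in the RSEM-layout gene tables (filled) and the second quantification (open), with the mean of both libraries as a line. Vegfb stands at the top near 174 TPM and Vegfc at the bottom near 1.74 TPM, and Vegfa shows the widest gap between the animals.

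Among the ligands, Vegfb stood highest. It encodes a ligand of Flt1 and Nrp1 that is abundant in heart muscle, and the gene (ENSMUSG00000024962.13) lies on the minus strand of mm10 chromosome 19, from 6982473 to 6987651. Its level was 169.86 TPM in replicate 1 and 178.84 TPM in replicate 2 (174 ± 6.35), from 6497 and 6455 expected counts. That placed it above 97.2% of the 10751 expressed nuclear protein-coding genes. Both libraries were high, and their scaled counts had a ratio of 0.970 (replicate 1 over replicate 2, exact Clopper-Pearson 95% interval 0.937 to 1.004). Such intervals cover counting error only, because reads without molecular identifiers are not independent molecules.

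Vegfb was read mainly from a pair of coding transcripts that differ by the acceptor site of 1 internal exon, shown here because this choice sets the end of the protein. These transcripts also differ elsewhere, and Vegfb-201 has 123 exon bases in all that no other Vegfb transcript shares. They are given 5′ to 3′ from the exon before that acceptor (mm10 chr19:6985466-6985840, minus strand, GENCODE M21 transcripts). Capitals mark the 101 bases that the upstream acceptor adds.
Vegfb-202: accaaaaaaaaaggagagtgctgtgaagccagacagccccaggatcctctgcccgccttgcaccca
Vegfb-201: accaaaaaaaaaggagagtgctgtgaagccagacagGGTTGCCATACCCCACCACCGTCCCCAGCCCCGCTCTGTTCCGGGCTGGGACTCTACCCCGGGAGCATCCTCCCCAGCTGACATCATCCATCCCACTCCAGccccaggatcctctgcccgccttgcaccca
The added length is not a multiple of the codon length, so the frames of both transcripts differ after it. As background, the form from the downstream acceptor binds heparin and the form from the upstream acceptor diffuses more freely. Vegfb-202, which uses the downstream acceptor, held 64.1% of the gene in replicate 1 and 65.1% in replicate 2 (64.6 ± 0.700%), and Vegfb-201 held 35.6% and 34.7%. The libraries differed little in this split, and in the second quantification Vegfb-202 held 65.7% and 67.8%.

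Vegfa, the main growth factor for blood vessel endothelium and a target of the oxygen-sensing pathway, was the second ligand. The gene (ENSMUSG00000023951.17) lies on the minus strand of chromosome 17, from 46016993 to 46032369. It reached 93.07 TPM in replicate 1 and 64.09 TPM in replicate 2 (78.6 ± 20.5), from 7117 and 4707 expected counts, above 93.8% of expressed nuclear protein-coding genes. Replicate 1 was thus the higher library, and the scaled ratio of 1.46 (95% counting interval 1.40 to 1.51; log2 0.54) was the largest among the 10 genes. Of the 10956 genes with 200 or more summed counts, 4.41% had a log2 ratio at least as large in size. The second quantification gave a ratio of 1.46 as well.

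The main Vegfa transcripts differ in a pair of alternative exons near the end of the coding sequence, which encode the stretches that bind heparin and the matrix. The sequences below run from the shared 30-base exon before them to the stop codon (mm10 chr17:46018858-46024094, minus strand, introns removed, GENCODE M21), and capitals mark the alternative exons.
Vegfa-202: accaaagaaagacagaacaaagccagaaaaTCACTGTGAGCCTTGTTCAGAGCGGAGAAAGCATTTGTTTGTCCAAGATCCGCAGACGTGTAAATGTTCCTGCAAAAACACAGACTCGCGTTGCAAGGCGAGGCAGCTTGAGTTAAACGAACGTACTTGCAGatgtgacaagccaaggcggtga
Vegfa-207: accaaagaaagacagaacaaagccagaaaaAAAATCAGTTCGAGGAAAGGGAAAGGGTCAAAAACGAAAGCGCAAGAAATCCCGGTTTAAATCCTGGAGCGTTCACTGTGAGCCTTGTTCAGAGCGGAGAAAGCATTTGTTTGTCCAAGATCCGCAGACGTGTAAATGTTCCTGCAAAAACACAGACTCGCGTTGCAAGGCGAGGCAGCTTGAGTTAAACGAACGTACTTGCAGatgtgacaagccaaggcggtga
Vegfa-201: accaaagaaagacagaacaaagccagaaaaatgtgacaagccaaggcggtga
Vegfa-203: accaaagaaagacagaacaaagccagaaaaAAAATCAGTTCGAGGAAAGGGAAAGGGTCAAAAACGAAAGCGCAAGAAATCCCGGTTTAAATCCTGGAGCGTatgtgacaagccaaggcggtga
Vegfa-202 carries the longer alternative exon alone (132 bases, chr17:46020991-46021122), Vegfa-203 the shorter alone (72 bases, chr17:46022277-46022348), Vegfa-207 both, and Vegfa-201 neither. As background, the protein without either stretch diffuses freely, the one with the longer stretch alone is partly bound, and the one with both is held on the cell surface and matrix. Both exons are whole numbers of codons, so all 4 end in the same stop codon. They also differ at the other end, where Vegfa-202 and Vegfa-207 are annotated with 600 coding bases in exon 1, and Vegfa-201 and Vegfa-203 with 66. The sequences are those of the reference strain, and the Cast allele was not analysed here.

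**Figure D2:**
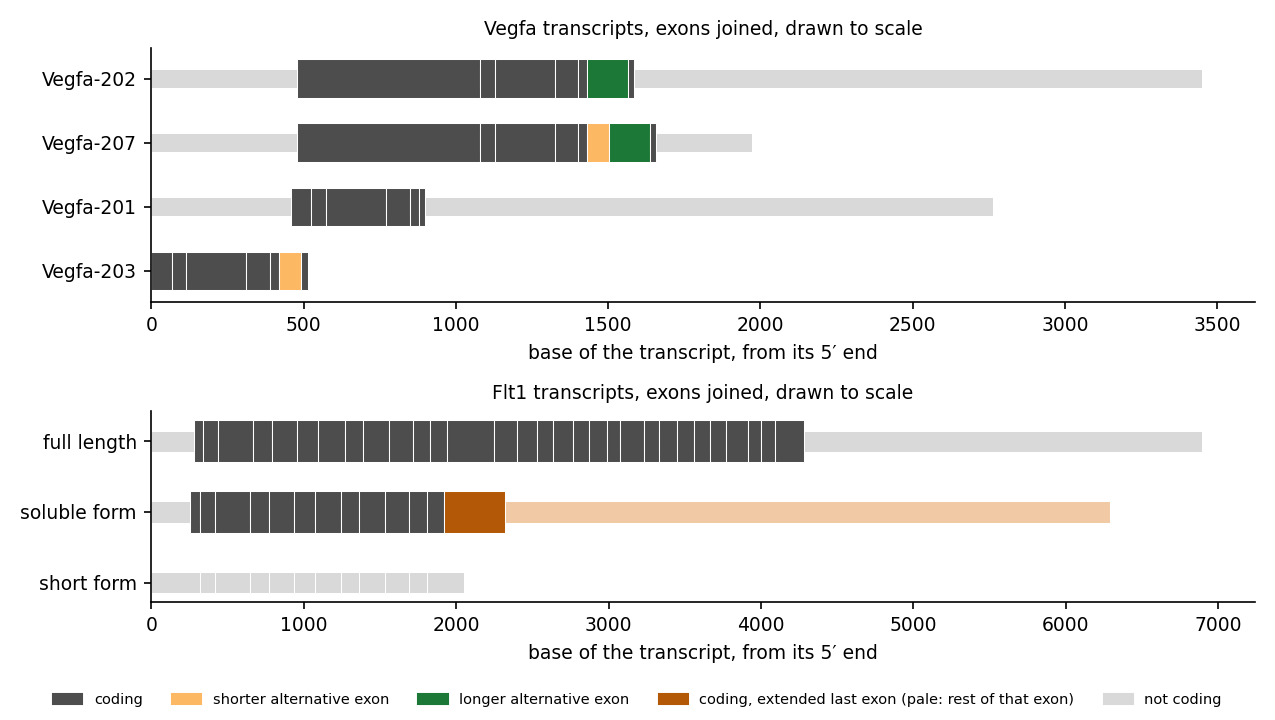
Exons of the main Vegfa and Flt1 transcripts, joined and drawn to scale in bases from the 5′ end of each transcript, with coding bases as tall blocks. The 4 Vegfa transcripts differ in the coloured alternative exons and in where coding starts, and the soluble form of Flt1 reads on from exon 13, where the full-length form continues to exon 30.

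Vegfa-202 was the leading transcript in both libraries, with 36.5% of Vegfa in replicate 1 and 34.1% in replicate 2 (35.3 ± 1.68%). Vegfa-207 followed with 20.1% and 23.2%, and Vegfa-201 with 17.8% and 20.9%. Vegfa-203 held 8.21% and 4.72%. Summed by exon, coding transcripts with the longer exon made 56.6% of Vegfa in replicate 1 and 57.4% in replicate 2. Those with the shorter exon made 28.3% and 28.0%. Transcripts annotated with a retained intron were kept apart and not sorted by exon. Thus, in the RSEM-layout tables, the total for each exon differed between the animals by under 1 percentage point. The level of the gene, by contrast, was 1.46-fold higher in replicate 1.

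The share of coding transcripts with the longer exon was much the same in the second quantification, at 58.4% and 58.6%. That with the shorter exon was 35.5% and 37.8%, a wider gap between the animals than in the RSEM-layout tables. Coding transcripts with neither exon made 5.64% and 3.05% in the second quantification, less than in the RSEM-layout tables. Vegfa-203 made 15.9% and 20.9%, more than in those tables. Vegfa-203 is annotated as 513 bases with no untranslated ends, Vegfa-201 as 2765 bases, and neither has exon bases that no other Vegfa transcript shares. The 5 annotated Vegfa transcripts of the retained-intron class held 17.4% and 17.0% of Vegfa, and 20.0% and 17.5% in the second quantification. Vegfa-206 led that class with 7.01% and 6.13%, Vegfa-209 held 4.32% and 7.46%, and Vegfa-205 held 0% and 1.83% but 8.59% and 6.65% in the second quantification. The coding transcripts Vegfa-204, Vegfa-211, Vegfa-212 and Vegfa-213 were listed at 0 in both libraries and both quantifications.

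**Figure D3:**
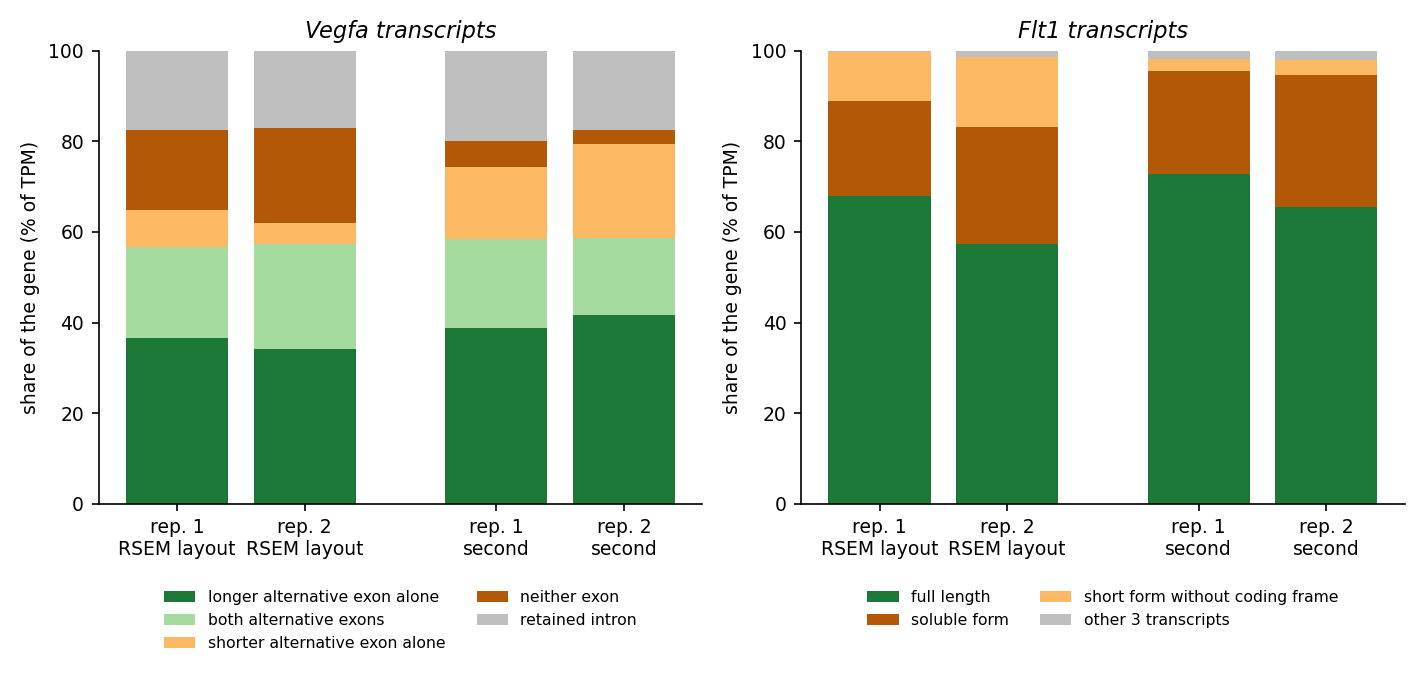
Share of each gene's TPM by transcript class for Vegfa (left) and by transcript for Flt1 (right), for replicates 1 and 2 in the RSEM-layout tables and in the second quantification. The coding transcripts of Vegfa with the longer exon stack to between 56.6% and 58.6% in all 4 bars. The class of coding transcripts with neither exon is larger in the RSEM-layout bars.

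Vegfc, the ligand of lymphatic endothelium, was the lowest of the 10 genes. Its gene (ENSMUSG00000031520.6) lies on the plus strand of chromosome 8, from 54077606 to 54187096. It had 1.66 TPM in replicate 1 and 1.82 TPM in replicate 2 (1.74 ± 0.113), from 136 and 140 expected counts, above 7.44% of expressed nuclear protein-coding genes. The libraries were close, and at this depth the counting interval of their ratio ran from 0.734 to 1.19. Vegfc-201 held 100% of the gene in both, but 79.0% and 76.7% by the deposited posterior mean TPM. Summed over the 3 VEGF ligands, the level was 264.59 TPM in replicate 1 and 244.75 TPM in replicate 2. Vegfb made 64.2% and 73.1% of that sum, Vegfa 35.2% and 26.2%, and Vegfc 0.627% and 0.744%. The log2 ratio of Vegfa over Vegfb was −0.87 in replicate 1 and −1.48 in replicate 2 (−1.17 ± 0.433), the widest spread of the gene pairs compared.

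Kdr, the main signalling receptor for Vegfa on blood vessel endothelium, was the highest of the 3 VEGF receptor kinases. The gene (ENSMUSG00000062960.10) lies on the minus strand of chromosome 5, from 75932827 to 75978458. Its level was 30.35 TPM in replicate 1 and 28.2 TPM in replicate 2 (29.3 ± 1.52), from 6103 and 5366 expected counts, and a single transcript held 98.2% and 98.8% of it. Replicate 1 was slightly higher, with a scaled ratio of 1.10 (95% counting interval 1.06 to 1.14).

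Flt1, which binds Vegfa, Vegfb and Pgf and whose soluble form holds ligand away from Kdr, lay just below Kdr. The gene (ENSMUSG00000029648.13) is on the minus strand of chromosome 5, from 147561604 to 147726011. It had 25.98 TPM in replicate 1 and 23.97 TPM in replicate 2 (25.0 ± 1.42), from 5540 and 4579 expected counts. The scaled ratio was 1.17 (95% counting interval 1.12 to 1.21), higher in replicate 1 as for Kdr. Within each library Flt1 stood below Kdr by nearly the same factor, with a log2 ratio of Flt1 over Kdr of −0.22 in replicate 1 and −0.23 in replicate 2 (−0.23 ± 0.00719).

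The membrane and soluble forms of Flt1 part at the end of exon 13, and the bases at that junction are shown because they separate the forms. Each run starts with the last 30 bases of exon 13 that both share. Capitals mark the start of the next exon in the full-length transcript (ENSMUST00000031653.11; chr5:147634464-147639254, intron removed), and in the soluble transcript (ENSMUST00000110529.5) the coding bases past the exon 13 donor up to and including the stop codon (chr5:147639130-147639254; minus strand, mm10, GENCODE M21).
Flt1 full length: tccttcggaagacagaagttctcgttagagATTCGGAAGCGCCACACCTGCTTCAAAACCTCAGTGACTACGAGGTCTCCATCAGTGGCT
Flt1 soluble: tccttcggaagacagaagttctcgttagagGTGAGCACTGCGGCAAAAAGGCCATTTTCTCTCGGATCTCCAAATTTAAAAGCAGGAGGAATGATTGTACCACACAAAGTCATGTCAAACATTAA
The full-length transcript has 30 exons and encodes the full-length receptor with its transmembrane and kinase domains. The soluble transcript ends in an extended exon 13, so its protein stops before both domains. A further short transcript is annotated without a coding frame. It ends in an exon 12 of its own, whose 241 bases no other Flt1 transcript shares.

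The full-length form was the leading transcript of Flt1 in both animals, with 68.05% in replicate 1 and 57.3% in replicate 2 (62.7 ± 7.62%). The soluble form held 20.8% and 26.0%, and the short noncoding form 11.0% and 15.3%. In TPM, the full-length form was at 17.68 in replicate 1 (deposited credibility bounds 16.7 to 17.9, whose level the sources used here do not give) and at 13.72 in replicate 2 (12.9 to 13.97). The soluble form was at 5.39 in replicate 1 (4.92 to 5.64) and at 6.23 in replicate 2 (5.72 to 6.51). The full-length form was thus higher in replicate 1 and the soluble form higher in replicate 2. The bounds did not overlap, but they cover read assignment and counting within a library and not the spread between animals. In the second quantification the full-length form was at 16.8 TPM in replicate 1 and 12.5 TPM in replicate 2, and the soluble form at 5.24 and 5.58 TPM.

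The full-length form exceeded the soluble form 3.28-fold in replicate 1 and 2.20-fold in replicate 2, and in the second quantification 3.20-fold and 2.24-fold. By annotation these transcripts are the better separated ones, with 4495 exon bases found only in the full-length form and 4066 only in the soluble form. The short noncoding form has 241. The bases found only in the soluble form lie in the intron that follows exon 13 in the full-length form. Reads of unspliced RNA would fall there too, and their part in the soluble share was not tested. The same limit holds for the 241 bases of the short noncoding form, which lie in no exon of the full-length form. The share of the short noncoding form was 2.70% and 3.21% in the second quantification, below that in the RSEM-layout tables. Together, the transcripts that end before the transmembrane exon made 31.7% and 41.3% of Flt1, and 25.5% and 32.4% in the second quantification. The difference of 10.8 percentage points in the share of the full-length form came out at 7.28 points in the second quantification.

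Flt4, the receptor for Vegfc on lymphatic endothelium, was the lowest receptor. Its gene (ENSMUSG00000020357.3) lies on the plus strand of chromosome 11, from 49609263 to 49652739. It was at 4.25 TPM in replicate 1 and 4.48 TPM in replicate 2 (4.37 ± 0.163), from 900 and 890 expected counts, with a scaled ratio of 0.975 (95% counting interval 0.887 to 1.07). Both animals thus had Flt4 at a level above that of its ligand, with a log2 ratio of Vegfc over Flt4 of −1.33 ± 0.0401. Its leading transcript held 97.6% and 96.2% of the gene. The 6 lymphatic markers had a median of 3.68 TPM in replicate 1 and 2.51 TPM in replicate 2, and none passed the 1.5-fold limit between the animals. They did not move together: the scaled ratio was 0.703 for Prox1 but 1.44 for Lyve1, 1.45 for Pdpn and 1.37 for Mmrn1. It was 1.02 for Ccl21a and 0.936 for Reln.

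Nrp1, a co-receptor that binds heparin-binding VEGF forms and class 3 semaphorins, was the highest receptor of all. The gene (ENSMUSG00000025810.9) lies on the plus strand of chromosome 8, from 128358604 to 128503363. Its level was 37.0 TPM in replicate 1 and 46.32 TPM in replicate 2 (41.7 ± 6.59), from 4462 and 5268 expected counts. It was lower in replicate 1, with a scaled ratio of 0.816 (95% counting interval 0.784 to 0.850; log2 −0.29), and 14.6% of tested genes had a ratio at least as large in size. The ratio was 0.828 in the second quantification. The leading transcript held 94.6% and 94.2% of Nrp1. The microRNA gene Mir1903 lies within it on the same strand and had 0 counts. For comparison, the VEGF receptor kinases Kdr, Flt1 and Flt4 summed to 60.58 TPM in replicate 1 and 56.65 TPM in replicate 2.

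Angpt1, the activating ligand of Tek, was at 8.87 TPM in replicate 1 and 9.65 TPM in replicate 2 (9.26 ± 0.552), from 1271 and 1303 expected counts. The gene (ENSMUSG00000022309.9) lies on the minus strand of chromosome 15, from 42424723 to 42676977. Its scaled ratio was 0.940 (95% counting interval 0.869 to 1.02), and its leading transcript held 98.5% and 98.3%. The antisense gene Gm17473 overlaps it, with 28 and 19 counts. The library kit kept strand, per the labels, but how strand was used in counting is not given in the sources used here.

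Tek, the receptor of the angiopoietins, was at 11.55 TPM in replicate 1 and 11.91 TPM in replicate 2 (11.7 ± 0.255), from 1756 and 1698 expected counts. The gene (ENSMUSG00000006386.15) lies on the plus strand of chromosome 4, from 94739289 to 94874976. Tie1, on the minus strand of the same chromosome from 118471191 to 118490061 (ENSMUSG00000033191.14), was higher, at 19.71 TPM in replicate 1 and 20.49 TPM in replicate 2 (20.1 ± 0.552), from 2717 and 2676 expected counts. Both receptors were close between the animals, with scaled ratios of 0.997 (0.932 to 1.07) for Tek and 0.978 (0.927 to 1.03) for Tie1. The log2 ratio of Tek over Tie1 was −0.77 in replicate 1 and −0.78 in replicate 2 (−0.78 ± 0.00828). The log2 ratio of Angpt1 over Tek was −0.34 ± 0.0547, so the ligand stood below its receptor in both libraries.

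A single transcript held 93.5% and 93.9% of Tie1, whereas Tek was split over 3 coding transcripts. Tek-203 and Tek-202 differ in a 153-base exon (chr4:94799127-94799279), whose presence or absence is shown with 20 bases of the exon on each side (chr4:94798702-94804304, plus strand, mm10, GENCODE M21). They also differ elsewhere, as Tek-202 has 48 exon bases that no other Tek transcript shares, and the shares below are those of whole transcripts. Capitals mark the alternative exon.
Tek-203: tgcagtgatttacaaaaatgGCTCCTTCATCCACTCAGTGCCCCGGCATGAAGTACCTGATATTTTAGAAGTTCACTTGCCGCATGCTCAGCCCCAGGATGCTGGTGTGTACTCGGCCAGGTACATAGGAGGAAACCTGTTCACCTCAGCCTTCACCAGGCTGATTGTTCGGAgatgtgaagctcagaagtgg
Tek-202: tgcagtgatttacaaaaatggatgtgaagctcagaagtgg
The exon is a whole number of codons, so leaving it out shortens the coding sequence without a shift of frame. Tek-203 led with 56.0% of Tek in replicate 1 and 70.7% in replicate 2 (63.3 ± 10.3%), and with 63.6% and 69.1% in the second quantification. Transcripts with the exon made 74.1% and 83.8% of Tek, and 90.2% and 90.3% in the second quantification. Tek-202, without it, held 24.2% and 13.0%, and 6.34% and 5.76% in the second quantification. The skipped form was therefore the minor one in both libraries and both quantifications, but its share was lower in the second quantification in both animals, and the cause was not tested.

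Flt1 and Tek were the 2 of 10 genes whose leading transcript share differed by 10 percentage points or more between the animals. Among 9804 genes the same rule called 27.3%. In the second quantification 0 of the 10 genes passed it, beside 30.0% of 9796 genes. So 2 of 10 lies near the share over all genes.

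Gene levels differed little between the animals. None of the 10 genes passed 1.5-fold with 200 or more summed counts, beside 3.71% of the 10956 genes tested, 2.62% higher and 1.10% lower in replicate 1, and none passed 2-fold, beside 1.08%. All 10 met the count minimum, and 0 of 10 lies near the share over all genes. The counting interval excluded a ratio of 1 for 4 of the 10 (Vegfa, Flt1 and Kdr higher in replicate 1, Nrp1 lower), beside 36.5% of the genes tested. The median size of the log2 ratio was 0.0922 over the 10 genes and 0.107 over the genes tested, so the genes varied between the animals about as much as genes in general.

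**Figure D4:**
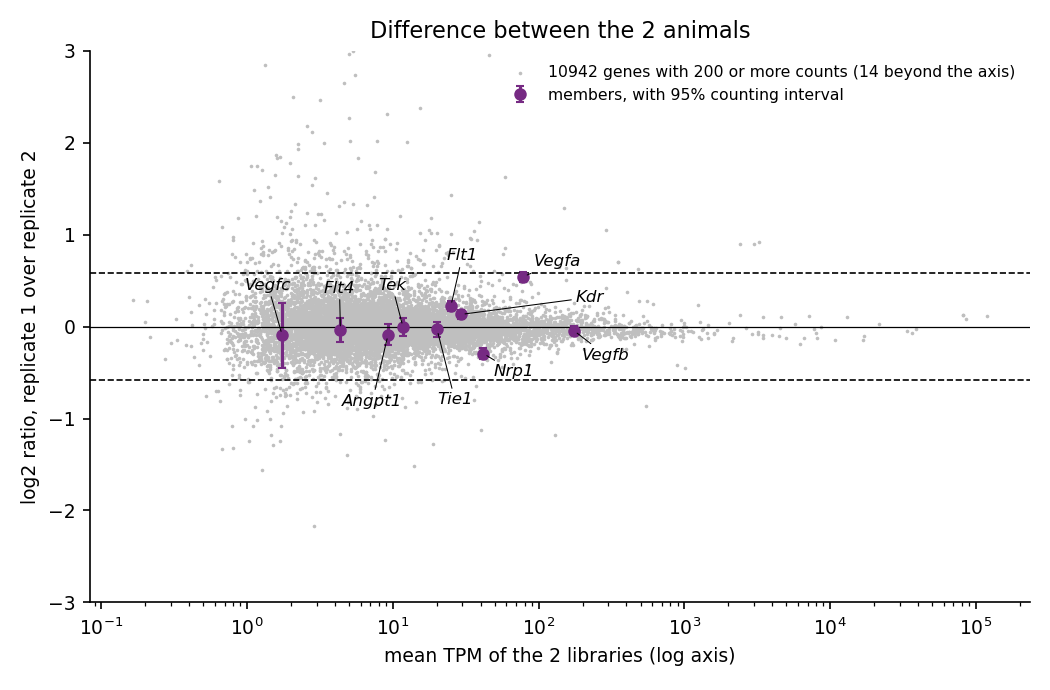
Log2 ratio of replicate 1 over replicate 2 against mean TPM (log axis) for the genes with 200 or more summed counts (grey; 14 lie beyond the axis) and for the 10 genes, with 95% counting intervals as bars. Dashed lines mark 1.5-fold, and the points of all 10 genes lie between them, with the interval of Vegfa reaching the upper line.

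Of the 5 other genes of the families, Nrp2, the co-receptor that pairs with Flt4, was the highest at 10.45 TPM in replicate 1 and 10.73 TPM in replicate 2. Pgf, a ligand of Flt1, had 1.30 and 1.89 TPM. Vegfd, a ligand of Flt4, had 1.25 and 1.16 TPM. Angpt2, the context-dependent antagonist of Tek that endothelial cells release, had 0.880 and 0.850 TPM, and Angpt4 had 0.05 TPM in both. Hence 3 of the 5 reached 1 TPM in both libraries, and Angpt1 was the highest of the angiopoietins. None of the 5 passed 1.5-fold, with 2 of them at the count minimum.

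Among 11 genes whose products partner the receptors, 10 reached 1 TPM in both libraries and the median was 7.96 TPM in replicate 1 and 9.39 TPM in replicate 2. Gpc1, a heparan sulfate proteoglycan, led with 180.08 and 183.18 TPM, followed by the integrin subunit Itgb1 with 114.89 and 121.91 TPM. Cdh5, the endothelial cadherin that associates with Kdr, had 39.23 and 45.27 TPM, and Plxnd1, a semaphorin receptor, had 24.0 and 30.03 TPM. The gene past 1.5-fold was Sema3f, a semaphorin ligand of neuropilins, at 5.76 and 4.55 TPM with a scaled ratio of counts of 1.53. Its TPM ratio is smaller than its count ratio, and TPM also divides by a mean transcript length that is estimated in each library.

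Of 9 genes of the oxygen-sensing pathway upstream of Vegfa, 8 reached 1 TPM in both libraries. Egln1 and Egln2, prolyl hydroxylases that mark hypoxia-inducible factors for breakdown, had 129.75 and 130.2 TPM, and 21.82 and 22.31 TPM. Epas1, an alpha subunit of those factors that is prominent in endothelium, had 95.2 and 97.1 TPM. Egln3, a prolyl hydroxylase that is itself induced by these factors, was the 1 gene past 1.5-fold, at 48.48 TPM in replicate 1 and 24.01 TPM in replicate 2 (scaled ratio 2.06, 95% counting interval 1.96 to 2.17). Egln3 was higher in the same animal as Vegfa. Hif1a, of the same list and named after its value was seen, was lower there, at 14.06 TPM in replicate 1 and 19.27 TPM in replicate 2. Its scaled ratio was 0.700 (95% counting interval 0.660 to 0.741), and the median log2 ratio of the 8 genes tested was 0.0251. With 2 libraries, the relation of Egln3 or Hif1a to Vegfa was not tested.

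Of 32 genes of receptor signalling, 30 reached 1 TPM in both libraries, with a median of 15.5 and 16.3 TPM and a median log2 ratio of −0.01. The stress-kinase substrate Hspb1, a small heat shock protein, led with 166.51 and 108.91 TPM and was higher in replicate 1 (1.56-fold). Mapkapk2, the kinase that phosphorylates it, had 109.47 and 109.13 TPM. Rac1, a small GTPase of cell movement, had 81.71 and 75.61 TPM, and the survival kinase Akt2 had 64.92 and 66.16 TPM. Nfatc2, a calcium-regulated transcription factor, was lower in replicate 1, at 3.40 TPM against 6.34 TPM in replicate 2 (0.542-fold). The other 28 of the 30 genes tested stayed within 1.5-fold.

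Genes known to respond to VEGF in endothelial cells numbered 13, of which 11 reached 1 TPM in both libraries and 11 met the count minimum. In replicate 1 Rcan1, a calcineurin inhibitor, was higher at 42.83 TPM against 28.19 TPM in replicate 2 (1.52-fold). Klf2 and Klf4, flow-responsive transcription factors, were also higher, at 21.65 and 13.91 TPM in replicate 1 against 11.51 and 7.31 TPM in replicate 2 (1.92-fold and 1.88-fold). Aplnr, the apelin receptor, was lower at 8.67 TPM against 11.76 TPM in replicate 2 (0.648-fold). So 3 of the 11 tested were higher and 1 lower in replicate 1, beside 2.62% and 1.10% of all genes. The rest of the 11 stayed within 1.5-fold, with scaled ratios of 0.877 to 1.22, and the median log2 ratio of the 11 was 0.221. Klf2, Klf4 and Rcan1 are also induced by many other signals, and whether Vegfa had a part in their levels was not tested.

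Of 9 transcription factors of endothelial cells, 8 reached 1 TPM in both libraries and 0 of the 8 tested passed 1.5-fold. Ets1 had 18.69 and 18.29 TPM, Sox18 16.7 and 14.85 TPM, Erg 9.84 and 11.26 TPM, and Fli1 6.87 and 9.39 TPM. Sox7 had 7.12 and 6.56 TPM, and Etv2, a factor of the embryonic vascular lineage, had 0 counts in both.

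**Figure D5:**
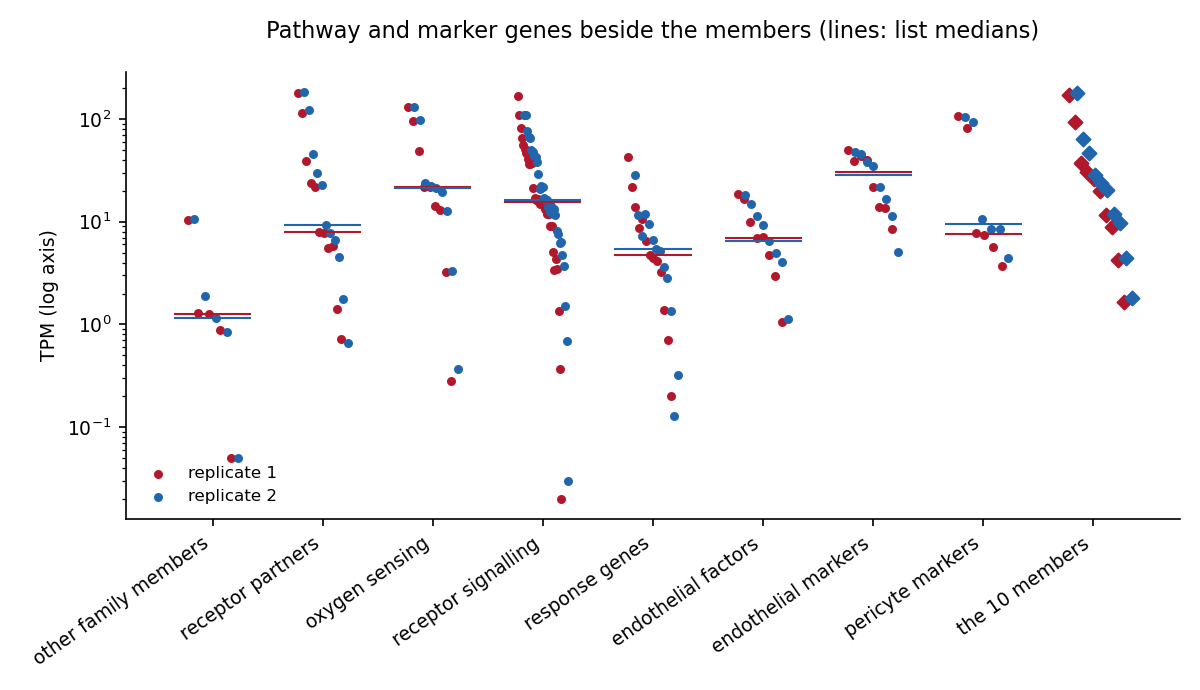
TPM (log axis) of each gene of the pathway lists and of the endothelial and pericyte marker lists in replicates 1 and 2, with list medians as lines and the 10 genes as diamonds; Etv2, at 0, is not drawn. The endothelial markers have medians of 30.4 and 28.4 TPM, near the levels of Kdr and Flt1.

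Cell type markers were set beside these levels. The endothelial markers summed to 229.99 TPM in replicate 1 and 221.6 TPM in replicate 2, and 1 of the 8, Cldn5, passed 1.5-fold (1.72, higher in replicate 1). The 6 pericyte markers summed to 213.97 and 230.69 TPM, the 6 heart muscle markers to 24985 and 27281 TPM, and the 6 fibroblast markers to 183.32 and 195.27 TPM, with none past 1.5-fold. Most of the pericyte sum was Rgs5 (107.11 and 105.39 TPM, ratio 1.02) and Abcc9 (82.39 and 93.27 TPM, ratio 0.913). The scaled ratio was 0.672 for Kcnj8, 0.737 for Pdgfrb, 0.785 for Cspg4 and 0.879 for Notch3. The 4 smooth muscle markers summed to 58.11 TPM in replicate 1 and 43.28 TPM in replicate 2. Of these, 3 met the count minimum and none passed 1.5-fold, with scaled ratios of 1.42 for Tagln, 1.25 for Acta2 and 1.08 for Myh11. The 4 epicardial markers summed to 18.63 TPM in replicate 1 and 10.48 TPM in replicate 2, and all 3 that met the count minimum (Msln, Upk3b and Wt1) were higher in replicate 1, 1.56-fold to 2.40-fold. The 4 adipocyte markers, too low to be tested, summed to 8.71 and 2.33 TPM. Among 6 macrophage markers Adgre1 was higher in replicate 1 (2.56-fold), while the list summed to 40.24 and 41.19 TPM. Leukocyte genes outside that list were higher in replicate 1 too, with log2 ratios of replicate 1 over replicate 2 of 2.97 for Itgb2 and 2.74 for Itgam, integrin subunits of leukocytes, 2.65 for Cfp, 1.94 for Ncf1, a subunit of the phagocyte oxidase, and 1.33 for Ptprc, the pan-leukocyte surface protein. The log2 ratio was 0.06 for the macrophage receptor Cd163 and −0.26 for C1qa, so the even sum of the macrophage list does not describe leukocyte genes in general. These marker genes were named after their values were seen, and their part in the higher Vegfa of replicate 1 was not tested.

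By level alone, the nearest of 131 list genes to Vegfb were Gpc1 (180.08 and 183.18 TPM), Egln1 and Hspb1, at distances of 0.0911, 0.601 and 0.716 on the log2 scale over both libraries. Among the nearest to Nrp1 were Cdh5 (39.23 and 45.27 TPM) and the adaptor Grb2 (41.15 and 43.95 TPM), at 0.0907 and 0.171. With 2 libraries of 1 group, this is a likeness of level and not of regulation.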

How the data were processed

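Total RNA of mouse heart was sequenced from 2 animals, 1 library each. The authors deposited gene and transcript tables in the column layout of RSEM, per the file headers, with expected counts, TPM, credibility bounds of TPM (recorded as a signal, their level not stated) and, for transcripts, the percent share of the gene. They also deposited transcript tables in the layout of kallisto, per the file headers, with estimated counts and TPM, here called the second quantification and summed by gene. Per the submitters' processing notes and the deposited listings, the assembly was mm10 and the annotation GENCODE M21; no aligner or tool version is given in the sources used here. The deposited effective length is the length less 100 bases in the first tables and, at the median, less 249 and 248 bases in the second, which raises short transcripts by different amounts. Depth was 42.13 and 40.07 M expected counts; 26248 gene entries with numeric identifiers held 1 and 0 counts and were left out. Expected counts were rounded and scaled by TMM in edgeR 4.0.16 (R 4.3.3), with DESeq2 1.42.0 size factors and library totals as alternatives. A gene was tested from 200 summed counts and called at 1.5-fold; intervals are exact Clopper-Pearson 95% in scipy 1.17.1 (Python 3.11.15, pandas 2.3.3, numpy 2.4.6, matplotlib 3.10.9). The fold calls and counting intervals were tested on simulated counts. Transcript shares, the order of levels and ratios within a library were not. Lists are described by counts and medians, with no set test. Named were the 10 genes, all other family genes, the 4 highest of each other pathway list and any list gene past 1.5-fold. Also named were Vegfa and Flt1 transcripts with 5% or more of the gene or coding, and the leading transcript of the rest. Some others, among them Hif1a, Sox7 and Etv2, were named outside this rule. Members and lists were chosen with earlier results of these data known. Sequences are from the GENCODE M21 transcripts. A gene that the likeness rule names is not reported here.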

Additional observations from a re-analysis of the deposited data

How the results depend on the processing

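The count of genes past the fold limit between the animals was 0 of 10 under each of the 5 alternatives run for it. Those with DESeq2 size factors, library totals and the second quantification could have changed it. A limit of 2-fold and the lack of a count minimum could not, because no gene passed 1.5-fold and all 10 met the minimum. Leaving out each replicate gave a median of 22.2 to 22.8 TPM, log2 ratios of −0.23 to −0.22 for Flt1 over Kdr, −1.48 to −0.87 for Vegfa over Vegfb and −0.78 to −0.77 for Tek over Tie1, and leading shares of 34.1% to 36.5% for Vegfa and 57.3% to 68.05% for Flt1. With the second quantification the median was 19.5 TPM, Flt1 over Kdr −0.29, Tek over Tie1 −0.76 and the leading Vegfa share 40.3%. Scaling TPM to nuclear protein-coding genes alone gave a median of 62.2 TPM, by construction. Posterior mean TPM gave −0.21 for Flt1 over Kdr and −0.76 for Tek over Tie1, and a pseudocount of 1 TPM gave −0.22 and −0.73. Counting coding transcripts alone raised the leading share to 42.7% for Vegfa and 72.7% for Flt1, by construction. Between the animals, some small differences turned: the log2 ratio of Tek was 0.00876 with DESeq2 size factors, against −0.00485 as reported, and in the second quantification the leading Vegfa share was 38.9% in replicate 1 and 41.6% in replicate 2, Tie1 18.23 and 17.78 TPM, and Tek 10.83 and 10.47 TPM. The alternatives on transcript classes were chosen after seeing the data. The class of coding Vegfa transcripts with neither exon averaged 19.4% in the first tables and 4.35% in the second, and the cause was not tested. Vegfc, with 136 and 140 counts, has the widest counting interval, and its posterior mean level was 1.22 times the main one. No paired analysis was possible because both libraries belong to 1 group and no groups are compared.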
